A study of Drosophila melanogaster with 2 samples.

Results

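Distal intronic Mad peaks are chromatin immunoprecipitation peaks whose summit, the single base with the highest signal, lay inside a gene span but in no exon, with the nearest annotated transcription start site (TSS) more than 2000 bp away. Genes, exons and TSSs were those of Ensembl release 115 without transposable elements. Of the 3590 peaks that the authors' reproducibility threshold kept, 525 met this rule. The rule used position only, not signal. The chromatin came from D. melanogaster embryos aged 0 to 24 h, taken whole and of mixed sex, of a stable transgenic line in which GFP is fused to the C-terminus of Mad. It was precipitated through GFP, although 1 label field names Mad as the antibody's target. Both samples, biological replicates 1 and 2, carried the transgene, and the series held no second condition. All cell types and stages of those 24 h were pooled, so a peak cannot be assigned to a tissue or a stage. All positions are in build dm6.

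Mad is the fly's receptor-regulated Smad. Receptors activated by Dpp and related bone morphogenetic proteins (BMPs) phosphorylate it, and it then moves into the nucleus with its partner Medea and binds DNA. Smads bind short GC-rich words, and at many target genes they act together with other DNA-binding proteins. Fly enhancers often lie in long introns, far from the promoter they act on, and introns of BMP pathway genes are known to hold such elements.

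The sequences of 3 of these regions show letters that were more frequent around the summits than in their flanks. Each is 261 bases of the plus strand with the summit at base 131, and capitals mark the 5 leading 7-letter words described after the sequences. They are the strongest distal intronic peaks outside 1 autosomal arm with at least 2 matches of such words within 100 bp of the summit, and overlapping words count as separate matches. Gug encodes Atrophin, a transcriptional corepressor, CG32264 has no role given here, and aos encodes Argos, a secreted inhibitor of the epidermal growth factor receptor (EGFR).
Gug, chr3L:8458171-8458431: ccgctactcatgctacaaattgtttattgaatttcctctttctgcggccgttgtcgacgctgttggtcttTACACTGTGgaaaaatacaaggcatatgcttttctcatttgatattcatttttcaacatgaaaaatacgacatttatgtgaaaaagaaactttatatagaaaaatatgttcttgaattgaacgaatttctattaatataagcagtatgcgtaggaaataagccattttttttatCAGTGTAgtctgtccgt
CG32264, chr3L:3785090-3785350: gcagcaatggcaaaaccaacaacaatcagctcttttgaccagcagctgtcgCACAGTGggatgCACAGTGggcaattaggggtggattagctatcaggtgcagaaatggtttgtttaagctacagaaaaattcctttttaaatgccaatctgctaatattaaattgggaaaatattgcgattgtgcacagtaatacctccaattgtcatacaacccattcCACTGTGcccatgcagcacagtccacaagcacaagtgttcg
aos, chr3L:16480459-16480719: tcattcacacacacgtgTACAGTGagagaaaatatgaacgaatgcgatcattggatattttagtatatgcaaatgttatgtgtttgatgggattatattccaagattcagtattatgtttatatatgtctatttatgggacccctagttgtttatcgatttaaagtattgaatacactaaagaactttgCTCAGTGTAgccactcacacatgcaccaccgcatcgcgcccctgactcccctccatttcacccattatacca
In each of the 3 the capitals lie to both sides of the summit, and the bases at the summit itself hold none.

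Besides Gug, which is among them and printed already, the 6 strongest distal intronic peaks outside that arm, and the strongest in dpp and Dad, are shown on the plus strand with the summit at base 76, the middle. Capitals mark the letters CACTG or their complement CAGTG, the core of 4 of the 5 leading words. Tlk encodes a kinase of chromatin assembly, Raf the kinase between Ras and MAP kinase, trx a histone H3 lysine 4 methyltransferase, and Hr4 a nuclear receptor of the ecdysone response. Dpp is the main BMP ligand and Dad the inhibitory Smad of the same pathway.
Tlk, chrX:3742154-3742304: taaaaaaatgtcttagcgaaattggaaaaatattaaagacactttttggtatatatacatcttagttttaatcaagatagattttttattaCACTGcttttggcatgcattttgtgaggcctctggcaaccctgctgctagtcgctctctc
CG32486, chr3L:3060728-3060878: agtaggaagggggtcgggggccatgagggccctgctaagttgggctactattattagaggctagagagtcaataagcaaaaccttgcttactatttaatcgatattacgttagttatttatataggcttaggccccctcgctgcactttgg
Raf, chrX:2297633-2297783: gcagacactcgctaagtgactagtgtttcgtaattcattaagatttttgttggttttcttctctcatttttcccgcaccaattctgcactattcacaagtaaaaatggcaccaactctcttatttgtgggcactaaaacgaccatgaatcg
trx, chr3R:14283830-14283980: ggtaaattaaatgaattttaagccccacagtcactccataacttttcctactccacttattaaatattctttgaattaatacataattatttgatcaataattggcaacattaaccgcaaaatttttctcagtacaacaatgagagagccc
Hr4, chrX:1947668-1947818: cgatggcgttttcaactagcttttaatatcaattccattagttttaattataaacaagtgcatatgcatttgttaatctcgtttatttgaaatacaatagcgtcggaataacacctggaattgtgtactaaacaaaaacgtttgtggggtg
dpp, chr2L:2433545-2433695: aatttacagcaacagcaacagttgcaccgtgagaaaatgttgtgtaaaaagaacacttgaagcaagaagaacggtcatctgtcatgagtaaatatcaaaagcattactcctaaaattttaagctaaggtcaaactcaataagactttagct
Dad, chr3R:17065123-17065273: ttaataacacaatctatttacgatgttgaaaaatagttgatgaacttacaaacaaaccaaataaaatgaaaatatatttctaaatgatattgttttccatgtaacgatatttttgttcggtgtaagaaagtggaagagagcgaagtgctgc
Of these 7 windows that of Tlk held the core, and so did the same stretch around the Gug summit, so that 2 of the 6 strongest windows held it. The G + C content of the windows of Tlk, trx, Hr4, dpp and Dad was 33.8%, 30.5%, 32.5%, 34.4% and 28.5%, and that of Raf and CG32486 was 39.1% and 45.7%.

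The 7-letter words were picked by a score, the number of distal intronic summits with the word within 100 bp minus the mean number of flanks with it (201 bp windows centred 600 bp to each side), divided by the square root of that mean plus a constant. The 5 of highest score are given, and other words had larger ratios or larger differences. They were picked from these sequences, so their shares are a description and were not tested. Each of the 5 words was counted with its reverse complement. CAGTGTA lay at 12% of summits and in 1.90% of flanks, and CACTGAG at 9.71% and in 1.90%. CACAGTG was found at 9.52% of summits and in 2.48% of flanks, CACTGTA at 9.71% and in 2.57%, and AGTGCAC at 8.0% and in 1.81%. At least 1 of the 5 lay at 195 of the 525 summits (37.1%, 95% Wilson interval 33.1% to 41.4%) and in 9.33% of flanks. At 73 summits 2 or more matches lay within the window, against a mean of 11.5 flank windows.

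The same 5 words were present at 34.1% of proximal intronic summits (within 2000 bp of a TSS), 34.1% of the 88 exonic summits and 34.3% of intergenic summits. They were present at 18.8% of promoter summits (within 500 bp of a TSS) and 25.3% of all thresholded summits. In the pooled list, they lay at 16.8% of the 5890 distal intronic summits that the threshold did not keep. Of 20616 evenly spaced positions that met the rule, 9.12% held one. The shares at exonic, proximal intronic and intergenic summits were near the distal intronic share, and that at promoter summits was lower. The words were picked at the distal intronic summits, which can raise their share there. The counting interval does not cover that choice, so it cannot rank the classes. With and without a word, distal intronic peaks had median signals of 101 (195 peaks) and 100 (330 peaks), and 25.6% and 18.2% of them were among the 1000 strongest thresholded peaks.

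The core CACTG was concentrated on both shoulders of the summit and not at its centre. In bins of 40 bp, distal intronic peaks had 18.5 and 22.1 core words per 100 peaks at 80 bp to the left and right of the summit, 9.14 at the summit, and between 5.52 and 9.71 in bins 160 bp or more away. A core word lay 40 to 120 bp to the left of 163 distal intronic summits (31.0%), to the right of 175 (33.3%), and on both sides of 76 (14.5%). On both sides it was found at 17% of the 88 exonic, 11.7% of intergenic, 10.5% of proximal intronic and 5.09% of promoter summits, 8.08% of all thresholded summits and 1.81% of the evenly spaced positions. The shoulders were present in other classes away from promoters too, with 16.5, 9.38 and 15.8 core words per 100 peaks at 80 bp to the left, at the summit and at 80 bp to the right of proximal intronic peaks, and 14.2, 11.4 and 18.1 at intergenic peaks. Base composition followed a trough of similar width. G + C was 32.8% in the bin at the summit, reached 44.6% and 44.9% at 280 bp to the left and right, and was 40.9% and 40.2% at 600 bp. Over the 201 bp window it averaged 36.3% ± 5.73 (SD over 525 peaks) and 40.6% in the flanks. G + C was below the flanks at 366 summits (69.7%), a share near the 72.7% of all thresholded summits. It was so at 76.2% of promoter, 71.2% of proximal intronic and 63.0% of intergenic summits. At the centre of proximal intronic and intergenic peaks G + C was 33.5% and 36.2%, so the trough was not limited to distal introns. The rule-meeting positions averaged 40.4% in the window and 41.0% in the flanks.

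**Figure D1:**
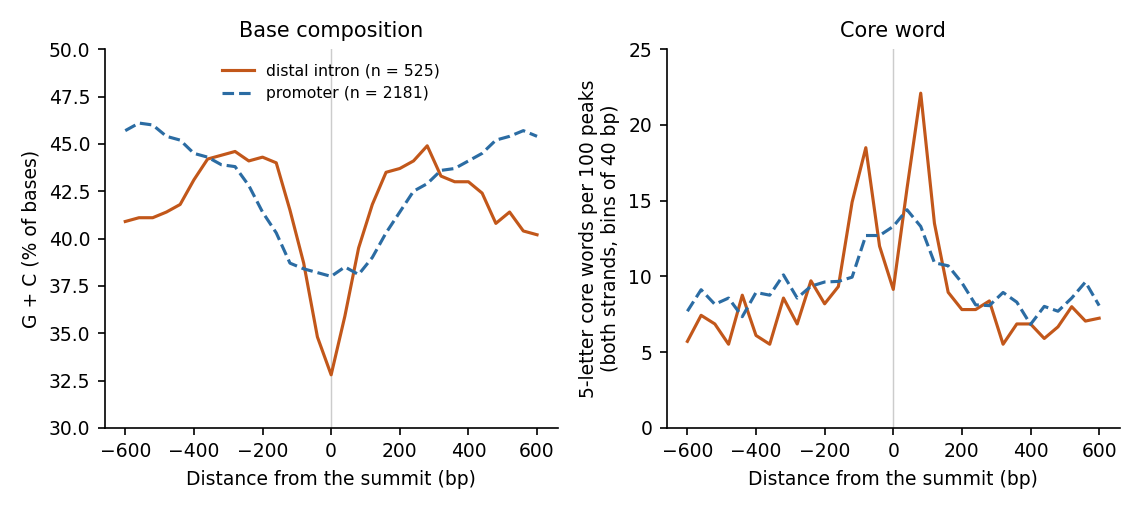
G + C content in percent (left) and core words CACTG or CAGTG per 100 peaks (right) in bins of 40 bp by distance from the summit in bp, for the 525 distal intronic peaks (solid) and the 2181 promoter peaks (dashed). The solid line falls to 32.8% G + C at the summit and has 2 maxima of core words, 18.5 and 22.1 per 100 peaks, 80 bp to each side, while the dashed line has 1 broad maximum that reaches 14.4.

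The 30 motifs of known factors gave no such concentration. Each was looked for on either strand in the 201 bp window around the summit and compared with the right flank of the same peak by a two-sided exact McNemar test, with Benjamini-Hochberg adjustment over the 30. None was more frequent at the distal intronic summits (0 of 30, 0%), and 1 was so at an unadjusted p under 0.05. At all 3590 thresholded summits 6 of 30 (20.0%) were more frequent and 7 (23.3%) less frequent than in the flank. Among motifs more frequent at the summits, the lowest unadjusted p was that of GGCGCC, a palindrome to which Smads can bind, at 21 summits (4.0%) and 9 right flanks (1.71%; exact McNemar p = 0.0428, adjusted p = 0.183). In the left flanks it lay at 17 (3.24%), close to the share at summits. The Mad site GCCGNCGC lay at 3 summits (0.571%) and 11 right flanks (2.10%; exact test, adjusted p = 0.191). GTCTGNC or GTCTGNG, Smad box words, lay at 46 summits (8.76%) and 76 right flanks (14.5%; exact test, adjusted p = 0.0635). They passed as less frequent at the summits against the left flank (adjusted p = 0.0183 by the exact test), in windows of 50 bp to each side (0.0141) and with a TSS distance over 1000 bp (0.0285). Less frequent at the summits was 1 motif of 30 (3.33%), GGAATG, a word bound by the Hippo pathway factor Scalloped, at 28 summits (5.33%) and 60 right flanks (11.4%; exact test, adjusted p = 0.0188). That call was lost without replicate 2, with the peaks that replicate 1 alone ranks highest (exact test, adjusted p = 0.0958), with windows of 200 bp to each side (0.188), with flanks 1000 bp away (0.371) and over 5000 bp from a TSS (0.358).

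Outside the left-out arm, the strongest distal intronic peak with GGAATG in a stretch of the shorter printed length lay in shep. This gene encodes an RNA-binding protein. The stronger CG32264 peak, of signal 316, holds the complement CATTCC farther from its summit. There the word lies within 100 bp, in the longer sequence printed above, where it is not marked. The shep stretch is shown with GGAATG in capitals as an exception to the lower frequency.
shep, chr3L:5187102-5187252: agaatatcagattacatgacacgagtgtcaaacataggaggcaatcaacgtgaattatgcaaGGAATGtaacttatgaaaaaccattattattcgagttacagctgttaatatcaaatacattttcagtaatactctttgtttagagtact
Its signal was 160.

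The motifs of the promoter factors DREF and M1BP were rare at distal intronic summits, and also at proximal intronic and intergenic ones. The motif of DREF, TATCGATA, lay at 1 of 525 distal intronic summits (0.190%) and at 213 of 2181 promoter summits (9.77%). M1BP's motif lay at 1 (0.190%) and 111 (5.09%). At proximal intronic and intergenic summits the DREF motif lay at 0.229% and 1.67%, and that of M1BP at 0% and 0.279%. CGATA, a word bound by the boundary factor BEAF-32, lay at 22.3% of distal intronic summits, which was close to the 22.1% in their flanks. It lay at 42.0% of promoter summits, whose flanks had 21.7%, and at 20.8% of proximal intronic and 24.0% of intergenic summits. GAGAGAG, bound by GAGA factor, lay at 2.29% of distal intronic and 4.31% of promoter summits, with 4.48% and 3.83% in their flanks, and the word of the pioneer factor Zelda, CAGGTAG, at 7 distal intronic summits (1.33%) and 7 right flanks.

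Distal introns held 14.6% of the thresholded peaks (95% Wilson interval 13.5% to 15.8%, which covers counting error over peaks only) on 30.9% of the bases, 41.4 Mb. That was 12.7 peaks per Mb, against 38.2 per Mb in proximal introns, 120 per Mb at promoters, 9.85 per Mb between genes and 26.8 per Mb overall. The authors' pooled list of 30000 peaks placed 6415 summits in distal introns, of which the threshold kept 8.18% (7.54% to 8.88%). It kept 12.8% of proximal intronic, 22.7% of promoter, 8.19% of intergenic and 12% of all pooled summits. Among the arms, X had the highest density with 125 peaks, 15.6 per Mb, followed by 2L (14.0), 2R (12.5), 3L (12.4) and 3R (10.7). The small chromosome 4 had none on 0.445 Mb, although 70 pooled summits met the rule there. On X the promoter density was 115 per Mb, the lowest of the 5 large arms.

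Density fell with distance from the TSS. Between 2 and 3 kb lay 118 peaks, 22.1 per Mb, between 3 and 5 kb 149 (19.1 per Mb), between 5 and 10 kb 163 (14.7 per Mb), between 10 and 20 kb 66 (7.70 per Mb), and beyond 20 kb 29 (3.35 per Mb). The pooled list showed the same order, with 229, 210, 176, 136 and 51.7 summits per Mb in the 5 bins. The share of pooled summits that the threshold kept was 9.66% (95% Wilson interval 8.13% to 11.5%), 9.14%, 8.35%, 5.67% (4.48% to 7.15%) and 6.49% (4.55% to 9.16%) from the nearest to the farthest bin. The interval of the bin from 10 to 20 kb lay below that of the nearest bin, and that of the farthest bin overlapped it. The median distance was 4954 bp (quartiles 3134 and 8293). The signal changed little with distance, with medians of 107, 104, 99.6, 97.1 and 94.5 from the nearest to the farthest bin and a Spearman correlation of -0.0856 over the 525 peaks, which share libraries and are not independent.

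**Figure D2:**
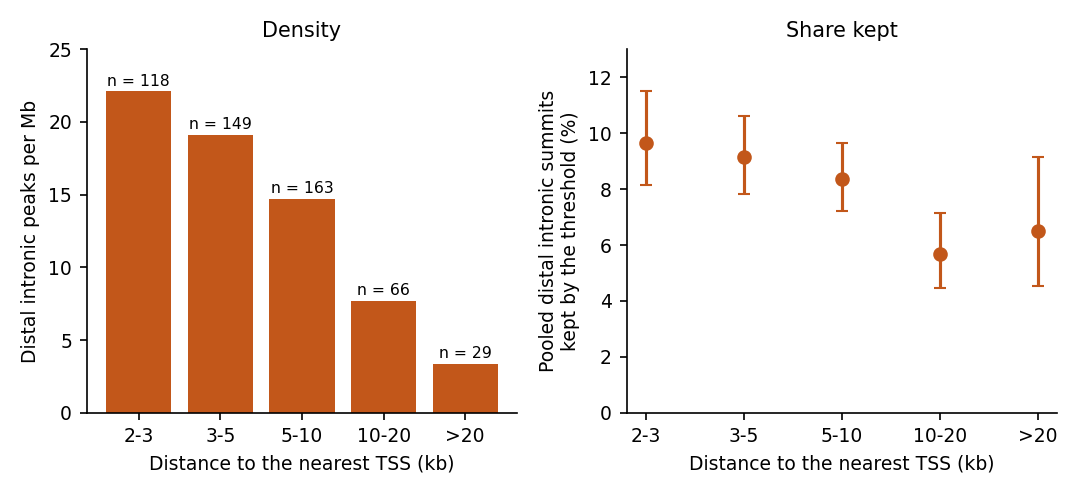
Distal intronic peaks per Mb of bases that meet the rule (left, bars, numbers of peaks above them) and share of pooled distal intronic summits kept by the threshold in percent (right, points with 95% Wilson intervals), by distance to the nearest TSS in kb. Density falls at every step, from 22.1 to 3.35 per Mb, while the kept share lies between 5.67% and 9.66%.

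At the edge of the rule, the nearest included summit lay in Ptp61F at chr3L:1414031-1414426, 2002 bp from the TSS of its neighbour FucTD, with a signal of 77.5. The nearest intronic summit outside the rule, at 1987 bp in toc (chr2L:3114125-3114520), had a signal of 75.8. The farthest was a peak of signal 87.5 in hth, which encodes a Hox cofactor, 49837 bp from any TSS (chr3R:10564241-10564636).

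The signal is the value that the authors' caller wrote for each peak. Its median was 101 for distal intronic peaks (quartiles 82.4 and 133, lowest 70.6, highest 620), 108 for proximal intronic, 109 for promoter, 100 for intergenic and 106 for all thresholded peaks. The upper end was thinner in distal introns: 110 of the 525 (21.0%) were among the 1000 strongest thresholded peaks, where 27.9% of all thresholded peaks were. The share was also below 27.9% for intergenic (24.5%) and exonic peaks (23.9%), and was 29.7% for proximal intronic and 29.8% for promoter peaks. Among the 100 strongest were 4 distal intronic, 7 intergenic, 3 exonic, 20 proximal intronic and 66 promoter peaks. Most were 396 bp wide, the full width in the list (90.3%). Of the 51 narrower ones, 38 were among the 50 strongest distal intronic peaks.

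**Figure D3:**
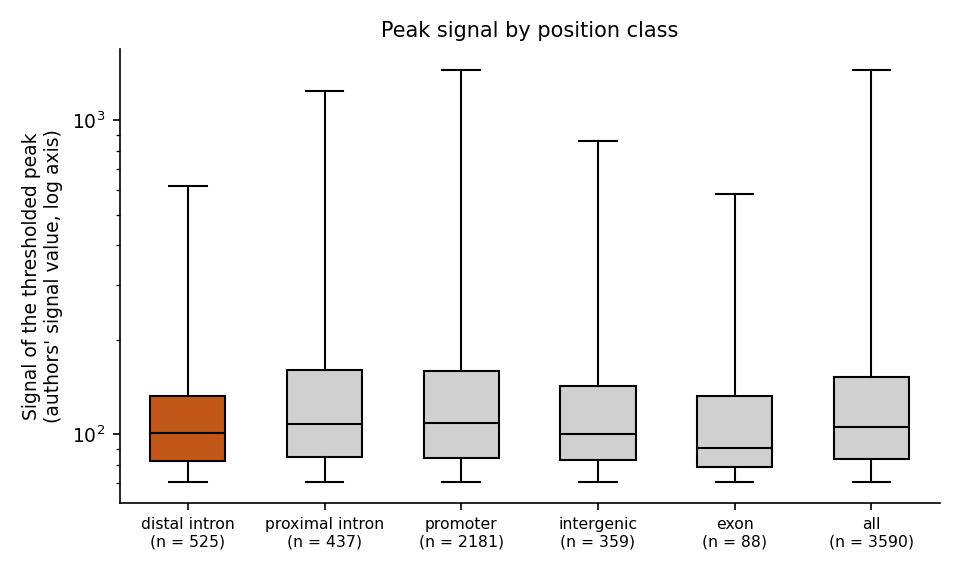
Signal of the thresholded peaks (authors' value, log axis) by position class. Boxes give the quartiles and the median, whiskers the lowest and highest peak, and the distal intronic box has a median of 101 and a highest value of 620, against 106 and 1447 for all peaks.

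Every distal intronic peak overlapped a peak in the list of each replicate, as did 3585 of all 3590 thresholded peaks. The threshold itself rests on both replicates, so this overlap says little about the class. In those lists the median signal of the distal intronic peaks was 45.5 in replicate 1 and 58.2 in replicate 2. A peak was counted as strong in a replicate when it was among that replicate's 3590 highest. Of the 525, 367 (69.9%, 65.8% to 73.7%) were strong in both replicates, compared with 74.7% of all thresholded peaks, 76.2% of promoter peaks and 71.9% of intergenic peaks. Another 51 were strong in replicate 1 only, 96 in replicate 2 only and 11 in neither. With stricter matches of the replicates, 341 of the 525 (65.0%) were strong in both when summits had to lie within 100 bp. The number was 327 (62.3%) when a larger part of each peak had to overlap. The log2 ratio of replicate 2 to replicate 1 had a median of 0.36 ± 0.47 (SD over peaks), ranged from -1.33 to 2.35 and exceeded 2-fold in either direction at 42 peaks. Its median was 0.28 ± 0.46 over all thresholded peaks, where those beyond 2-fold were not counted. Replicate 2 had the higher value at 424 of the 525 distal intronic peaks. Over all thresholded peaks it was the higher at 2715 of the 3585 found in both replicate lists. Across these peaks the signals had a Spearman correlation of 0.610 between replicates, and 0.706 across all thresholded peaks.

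**Figure D4:**
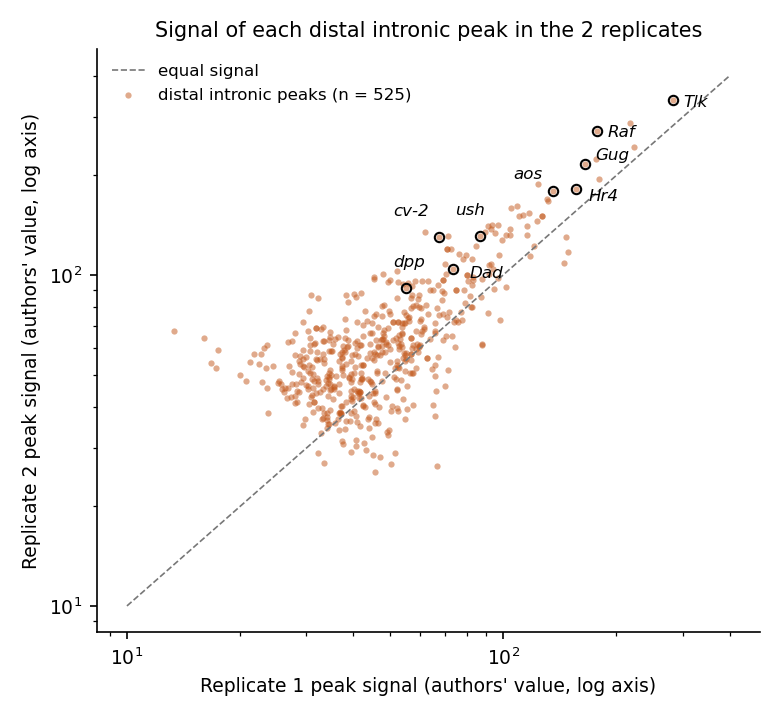
Signal of the 525 distal intronic peaks in replicate 2 (vertical) against replicate 1 (horizontal), both the authors' values on log axes, with the strongest peak of 9 host genes circled and the dashed line at equal signal. Most points lie above the line, as 424 of the 525 have the higher value in replicate 2, and the scatter is widest among weak peaks. Over all thresholded peaks, 2715 of the 3585 found in both replicate lists have the higher value in replicate 2.

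The peaks lay in 359 host genes, which is 8.29% of the 4333 genes with any base that met the rule. Of the hosts, 348 were protein-coding, 243 had 1 peak, 116 had 2 or more and 43 had 3 or more. Genes with more distal intronic sequence were hosts more often, with 24.2% of the 1083 genes with the most (over 8.64 kb) and 8.49% of the next 1083. The nearest TSS was the host's own for 357 peaks (68.0%), and 26 peaks lay in several overlapping hosts. Counting introns from the 5′ end between merged exons, 200 of the 533 pairs of a peak and a protein-coding host (37.5%) were in the first intron, which held 21.1% of the rule-meeting bases of such genes. The second intron held 143 pairs. The introns had a median length of 12.4 kb (quartiles 6.96 and 22.7).

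The strongest peak, in the fourth intron of Tlk (chrX:3742072-3742381), had a signal of 620, with 282 in replicate 1 and 337 in replicate 2, and ranked 28 among all thresholded peaks. The next lay in an overlap of CG12912, CG46321 and Hr3, a nuclear receptor gene of the ecdysone response (chr2R:10219924-10220210), with a signal of 506 and replicate signals of 218 and 288. CG32486 followed with 468 and Raf with 449, where the replicates had 178 and 273. These 4 were the only distal intronic peaks among the 100 strongest of the series. Then came CG12769 (402), Gug (381), trx (376), Hr4 (345), CG32264 (316), aos (315), mnb (302), which encodes a DYRK kinase, upSET (298), a chromatin protein gene, Lrch (281), S (278), whose product Star is needed for the release of EGFR ligands, and simj (272), which encodes a subunit of the NuRD chromatin complex. The weakest, in Ip6k on 2R, had 70.6, with 27.3 and 42.9 in the replicates.

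Several hosts carried series of peaks along their introns. Sbb, the corepressor gene scribbler, had 8, all in its first intron between 3042 and 49700 bp from the gene's 5′ end, with signals of 82.9 to 184. Raf had 6 in its second intron within 11091 bp of the gene's 5′ end. The peak nearest the 5′ end was the strongest with 449, the next had 138, those at 5227 and 8624 bp had 265 and 267, and the farthest had the lowest value, 99.7. Replicate 2 was the higher at 5 of the 6. Kirre, an adhesion protein gene of myoblast fusion, had 6, from 46374 to 356789 bp, of 78.0 to 261. A noncoding gene, lncRNA:CR44357, also had 6, 4 of them shared with CG1677, which overlaps it. The hosts with 5 peaks were Hr4 (102 to 345), ush (76.9 to 217), Eip75B (119 to 199), Antp (76.5 to 115) and shn (73.2 to 91.0). Those with 4 were Tlk, mam, tara, crp, Ptp61F, apt, msn, hth, CG1677, CG46458 and px, and CG46458 overlaps Antp. The remaining 23 hosts with 3 peaks had highest signals between 82.4 (CG5151) and 381 (Gug).

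**Figure D5:**
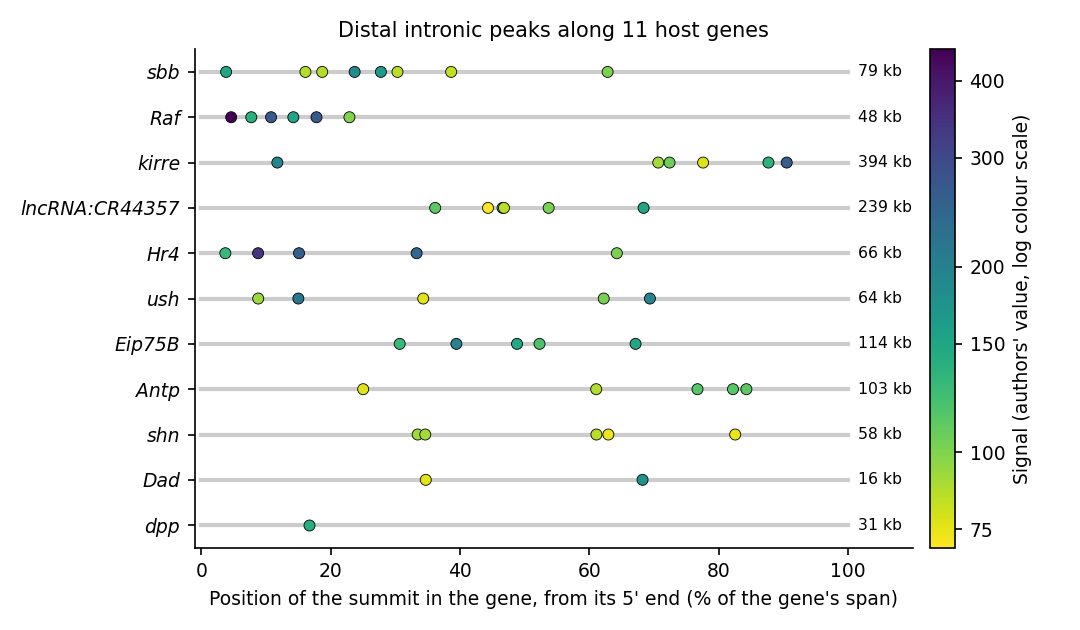
Position of each distal intronic summit along the 9 host genes with 5 or more of them and along Dad and dpp, in percent of the gene's span from its 5' end, with the span in kb at the right and the signal as colour (authors' value, log scale). The 6 Raf peaks lie near the 5' end, those of Eip75B in the middle, and 5 of the 6 kirre peaks toward the 3' end.

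Neighbouring peaks were close in 20 cases, with less than 1000 bp between summits, so the 525 summits made 505 separate loci. In 8 pairs the summits were 300 bp or less apart, with the smallest gap at 200 bp. Both replicate values of such a pair can come from the same replicate peak, as for the pair in Mef2, a myogenic transcription factor gene, where the pooled signals were 97.4 and 80.7 and both had 56.8 in replicate 1 and 57.6 in replicate 2.

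Genes of the BMP pathway hosted 18 distal intronic peaks. Of the 23 list members with any rule-meeting base, 9 were hosts (39.1%), and the density was 47.0 peaks per Mb, compared with 12.7 per Mb over all genes. The median signal of their peaks was 92.2, below the 101 of all distal intronic peaks. Peaks were assigned by host. The nearest TSS was another gene's for the peaks of dlp, cv-2, dally and tkv. It was so too for the stronger Dad peak and for the Snoo peaks of 110 and 75.1. For the remaining peaks, among them those of dpp, sog and shn, it was the host's own.

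For the ligand, dpp had 1 peak in its first intron, 5248 bp from the TSS (chr2L:2433422-2433817), with a signal of 142 and replicate signals of 55.2 and 91.4. Sog, whose product Short gastrulation binds BMPs outside the cell and limits their range, had 2, of 125 and 81.1, both in its second intron. Cv-2, the extracellular BMP-binding protein gene crossveinless 2, had 1 of 201 with replicate signals of 67.7 and 130. The glypican genes that shape ligand spread were both hosts: dlp with peaks of 209 and 107, and dally with 1 of 93.3. The dlp peak of 209 was also close to balanced in the replicates, with 92.9 and 108. Among these genes of secreted and surface proteins the peaks of dlp and cv-2 were the highest and the weaker peak of sog was the lowest.

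At the membrane, tkv, a type I receptor gene, had 1 peak of 75.6 with replicate signals of 40.6 and 31.7, near the low end of the list. In the nucleus, shn, the zinc finger protein with which Mad represses targets, had 5 peaks of 91.0, 90.7, 84.9, 74.2 and 73.2, all below the distal intronic median. Snoo, the Ski/Sno corepressor homologue, had 3 of 131, 110 and 75.1 in an intron of 78434 bp. Dad had 2. The stronger, at chr3R:17065000-17065395 in the fifth intron, had 176 with replicate signals of 73.4 and 104, and the weaker had 76.0 with 45.7 and 25.4, so the replicates ranked them alike but leaned opposite ways at the weaker one.

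Among Dpp target genes, 6 of 24 were hosts (25%), with 11 peaks and 31.0 per Mb. Ush, the U-shaped cofactor of GATA factors, had 5 peaks. They were 217, 194, 103, 92.8 and 76.9, and replicate 1 had 87.0, 72.9, 57.5, 31.8 and 50.4 at them while replicate 2 had 131, 120, 40.6, 55.6 and 26.9. Replicate 2 was the higher at 3 of the 5. The ush peak of 92.8 lay nearest to the TSS of another gene, cbt, at 2200 bp. Bi, a T-box gene, had 1 of 97.5, 19100 bp from the nearest TSS, and aos had 1 of 315 with 136 and 179. Dad, dally and tkv are on both lists.

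Genes of the EGFR and Ras pathway hosted 14 peaks in 7 of 18 members (38.9%), 50.3 per Mb, with a median signal of 152, above that of the BMP genes. Raf alone held 6 of the 14, within 11091 bp of its 5′ end, so this density and median rest in large part on 1 gene. Besides the peaks of Raf and aos, S had 278 and 81.6, aop, an ETS repressor gene, 265 (116 and 141 in replicates 1 and 2), vn, a neuregulin-like ligand gene, 153, pnt, an ETS activator gene, 152 and 110, and cic, the repressor Capicua, 83.9. Genes of the ecdysone response hosted 22 peaks in 10 of 20 members (50%), the highest share of the 21 lists, at 32.8 per Mb. Its strongest hosts were Hr3, Hr4, Eip75B, a nuclear receptor gene, and E23, an ABC transporter gene, with 144. Ftz-f1, another nuclear receptor, had a highest peak of 113, and EcR, the ecdysone receptor itself, 1 of 80.9.

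Among the other signalling lists, the JNK pathway had the highest density, 81.7 per Mb, with 12 peaks in 5 of 15 genes, among them aop and ush, which are also on other lists, msn, a kinase gene with 4 peaks up to 142, and puc, the JNK phosphatase gene, with 110. Wnt genes had 7 hosts of 21 with 32.4 per Mb, led by the receptor gene fz (192), the inhibitor gene nkd (144) and the coreceptor gene arr (128), with Wnt6 at 79.7. Hippo genes had 6 of 17 (33.4 per Mb), led by ex (160), ed (139) and kibra (111). Hedgehog genes had 3 of 13 (30.6 per Mb), with the receptor gene ptc at 114 and rdx at 114. Of the Notch genes 2 of 13 were hosts, and both had strong peaks, with 241 and 235 in mam, the coactivator gene, and 237 in the receptor gene N, where the replicates had 118 and 114. InR, the insulin receptor gene, was the only host among the 13 insulin and TOR genes, with 128.

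Lists of tissues and other functions spread around these values. Amnioserosa and dorsal ectoderm genes had 5 hosts of 14 and 52.7 per Mb, led by grh (233), an epidermal transcription factor gene, ush, raw (166) and mew (129). Chromatin and Polycomb genes had 5 of 20 and 50.9 per Mb, led by trx, Mi-2 (267), a NuRD remodeller gene, Psc (169) and jing (115). Tracheal genes had 6 of 16 (23.6 per Mb), with sim at 143 and heca at 126. Hox genes and cofactors had 2 of 9, hth and Antp. Dorsal mesoderm and heart genes had 3 of 15, jeb (141), how (108) and Mef2, and muscle genes 4 of 17 at 17.4 per Mb. Cytoskeletal and adhesion genes had 4 of 24 at 19.8 per Mb.

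The lists at the low end were neural and axon guidance genes, with 11 peaks on 1.19 Mb (9.22 per Mb) although 8 of 27 were hosts, led by Fas3 (149) and NetA (129), and midgut endoderm genes, with 1 host of 12, dpp, at 4.72 per Mb. None of the 2 chemosensory receptor genes with rule-meeting bases was a host, and no ribosomal protein gene of the list had any such bases. In all, 17 lists were denser than all genes together and 3 were less dense. Lists share members. Since hosts were more frequent among genes with much rule-meeting sequence, the shares are to be read against the 24.2% of genes with the most such sequence as well as against 8.29%.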

How the data were processed

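Peaks came from chromatin immunoprecipitation of whole embryos in 2 biological replicates of 1 group. Chromatin was sonicated to 200 to 800 bp, per the labels. For build dm6 the authors deposited a list of 30000 peaks per replicate, a pooled list of 30000 and a list thresholded on the irreproducible discovery rate. Per the texts deposited with them, the lists were made from replicate and control alignments, and control data were not used here. Not given in the sources used here: aligner, caller, versions, depths and the signal's formula. Each peak's signal is the value that the authors deposited. It served to describe and rank peaks and to compare replicates. Positions of peaks and summits are the deposited ones, counted from 1. The dm3 lists were not used here.

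Summits of the 5 large chromosome arms and chromosome 4 were classed in the order promoter, exon, proximal intron, distal intron and intergenic, with Ensembl release 115 and the RefSeq release 6 genome. Shares have Wilson intervals at 95%, which cover counting error over peaks. A replicate's value for a peak is the highest signal among its overlapping peaks (1 bp or more). Motifs were tested with the exact McNemar test and Benjamini-Hochberg adjustment (threshold 0.05), which treats peaks as units and does not measure the spread between embryos. The test was tried on simulated positions with planted motifs. Evenly spaced positions were 2011 bp apart. The computations used Python 3.11.15 with numpy 2.4.6, pandas 2.3.3 and scipy 1.17.1.

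The members, the gene lists, the motifs and the alternatives were chosen with earlier results of these data known. In the 21 gene lists (400 genes) 10 symbols were updated to annotation names and 15 entries were left out (8 other names of listed genes, 2 with no gene in the annotation and 5 that did not belong), and 1 entry made by mistake was replaced, all after the hosts had been seen. Named are the 15 strongest peaks, hosts with 4 or more, all peaks in BMP pathway and Dpp target genes, up to 4 hosts of each other list by strongest peak, and the extremes. The choice made beforehand was to name hosts with 3 or more, but most of those with 3 are given only as a range. Sequences surround the 6 strongest summits and those of dpp, Dad and the motif that passed. The 3 sequences of 261 bp (another that met the same choice is not reported here), the counts of words on each side of the summit and a few further genes (vn, pnt, cic, Ftz-f1 and EcR) were added after their values had been seen. Alternatives were a TSS distance of 1000 or 5000 bp, protein-coding genes only, the 1000 strongest peaks, the 10000 strongest pooled peaks, stricter matches of replicates, other motif windows and flanks, and each replicate alone. For the gene lists, another was the gene of the nearest TSS in place of the host.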

Additional observations from a re-analysis of the deposited data

How the results depend on the processing

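The numbers of distal intronic peaks and of hosts with 2 or more were 258 and 47 with a TSS distance over 5000 bp, and 110 and 11 among the 1000 strongest peaks. The count of peaks strong in both replicates was 180 over 5000 bp. These changes follow from the narrower rules themselves. With either replicate alone the median signal was 45.5 to 58.2, on the scale of the single lists. The threshold kept 30.1% of the 10000 strongest pooled peaks that met the rule and 7.24% of those over 5000 bp. The number of motifs that passed was 2 with windows of 50 bp to each side, 0 with 200 bp, 5 against the left flank, 0 with flanks 1000 bp away, 0 over 5000 bp, 5 over 1000 bp and 0 to 3 with either replicate alone. The cause was not tested. GGCGCC, over 1000 bp, was the only motif more frequent at summits in any of these (adjusted p = 0.0386 by the exact McNemar test). The share with GGAATG at summits minus that in the flank was -6.10 percentage points as reported and between -5.71 and -3.43 in the alternatives, lowest in size with flanks 1000 bp away. The share of summits with a leading 7-letter word was 14.9% within 50 bp and 51.2% within 200 bp, in alternatives added after the data were seen, and 35.4% to 36.3% with either replicate alone. Hosts among BMP pathway genes were 6 over 5000 bp, against 9. The other counts of peaks and hosts moved by less than 1.5 times. No direction reversed. Of the distal intronic peaks, 460 overlapped one of the 523 that replicate 2 alone gave and 416 one of the 483 that replicate 1 alone gave. With 2 replicates and no second condition, no difference between conditions could be tested. No paired analysis was possible because both samples form 1 group.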

Other observations

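The replicates gave unequal signals at most distal intronic peaks, and the other classes leaned the same way. The median log2 ratio of replicate 2 to replicate 1 was 0.3 for proximal intronic, 0.34 for intergenic, 0.25 for promoter and 0.28 for all thresholded peaks. For distal intronic peaks it was between 0.32 and 0.39 on each of the 5 large arms, and whether sequencing depth moves with this ratio was not tested. The core CACTG lay at 54.3% of thresholded and 37.2% of unthresholded distal intronic summits of the pooled list, and at least 1 of the 5 leading words at 37.1% and 16.8%, which is a description since the words were picked from the thresholded summits.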
